A study of Drosophila melanogaster with 3 samples.

Results

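The emc gene lies on chromosome arm 3L at 3L:749400-753492 (dm6, plus strand, gene FBgn0000575), with 2 exons and an intron of 2044 bp. Its window, the gene body and 50 kb to each side (3L:699400-803492), held 16 of the 3905 distinct peaks in the joint list of reproducible peaks of CG1529-GFP, called the optimal list here. The gene was chosen by this count of peaks, so the count, the signal values and the spacing are given as a description and were not tested. The members are all optimal peaks whose summit falls in the window. The window is named for the gene at its centre and not for the gene at its peaks: 0 of the 16 summits lay in the emc gene, and emc had the nearest transcription start site (TSS) of 0 of them.

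The libraries came from whole Drosophila melanogaster embryos, male and female pooled, 0 to 14 h old. The transgenic line stably expresses CG1529, a predicted zinc finger protein, with GFP at its C terminus. There is 1 group of 3 biological replicates and no second genotype or treatment. The labels name CG1529 as the antibody target but also describe the libraries as input controls, and each library's peaks were called against 1 shared control that was not analysed here. Whole embryos mix all tissues of a long stretch of development, so a peak cannot be assigned to a cell type or stage, and binding in fewer cells cannot be told apart from weaker binding in each cell.

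emc (extra macrochaetae) encodes a helix-loop-helix protein without a basic DNA-binding region, the fly counterpart of the vertebrate Id proteins. It pairs with the E protein Daughterless and with proneural proteins and keeps them off DNA, and so limits where neural precursors, muscle and other tissues form. The gene is nested in an intron of hng3, which runs on the opposite strand from 3L:755489 to 3L:737680. hng3 is a member of the MADF-BESS family of chromatin-associated transcription factors, named for its part in wing hinge development. An upstream position below means before the emc TSS in the direction of emc transcription.

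The 101 bases centred on the summit are shown for the 3 peaks of highest signal and for the pair that flank emc. The 3 strongest were all farther from emc than this pair, but weak peaks were also distant. The weakest member, with signal 166.5, was 49.1 kb upstream. They are dm6 plus-strand sequence from the RefSeq assembly, in lower case, and capitals mark the searched words described further on.
24.7 kb upstream, 3L:724611-724711: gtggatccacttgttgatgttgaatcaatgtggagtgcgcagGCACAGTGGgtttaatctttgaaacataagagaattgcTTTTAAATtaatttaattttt
10.5 kb upstream, 3L:738875-738975: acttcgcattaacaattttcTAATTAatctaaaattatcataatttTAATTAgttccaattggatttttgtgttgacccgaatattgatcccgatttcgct
3.7 kb upstream, 3L:745620-745720: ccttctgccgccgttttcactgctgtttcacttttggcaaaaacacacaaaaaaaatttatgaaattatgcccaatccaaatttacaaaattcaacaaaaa
5.4 kb downstream, 3L:754729-754829: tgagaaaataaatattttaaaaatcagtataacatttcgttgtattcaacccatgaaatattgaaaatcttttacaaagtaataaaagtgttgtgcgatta
31.9 kb downstream, 3L:781297-781397: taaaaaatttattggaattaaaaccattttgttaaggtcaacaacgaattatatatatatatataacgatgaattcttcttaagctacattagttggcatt

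The peaks stood on both sides of emc, 7 upstream and 9 downstream, and the strongest were not the closest. The authors' signal value is used here mainly to rank peaks within a list. In the window it ran from 166.5 to 1004 with a median of 298.0, against a median of 254.7 over all optimal peaks. The 7 upstream peaks had a median signal of 250.3 and the 9 downstream peaks 304.9. Of the 16, 9 were in the stronger 1952 peaks of the optimal list and 1 was in its strongest 390 peaks. All 16 sat at the highest −log10 q-value of the list, 3.87, as did 94.4% of optimal peaks, so the q-value does not order them.

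**Figure D1:**
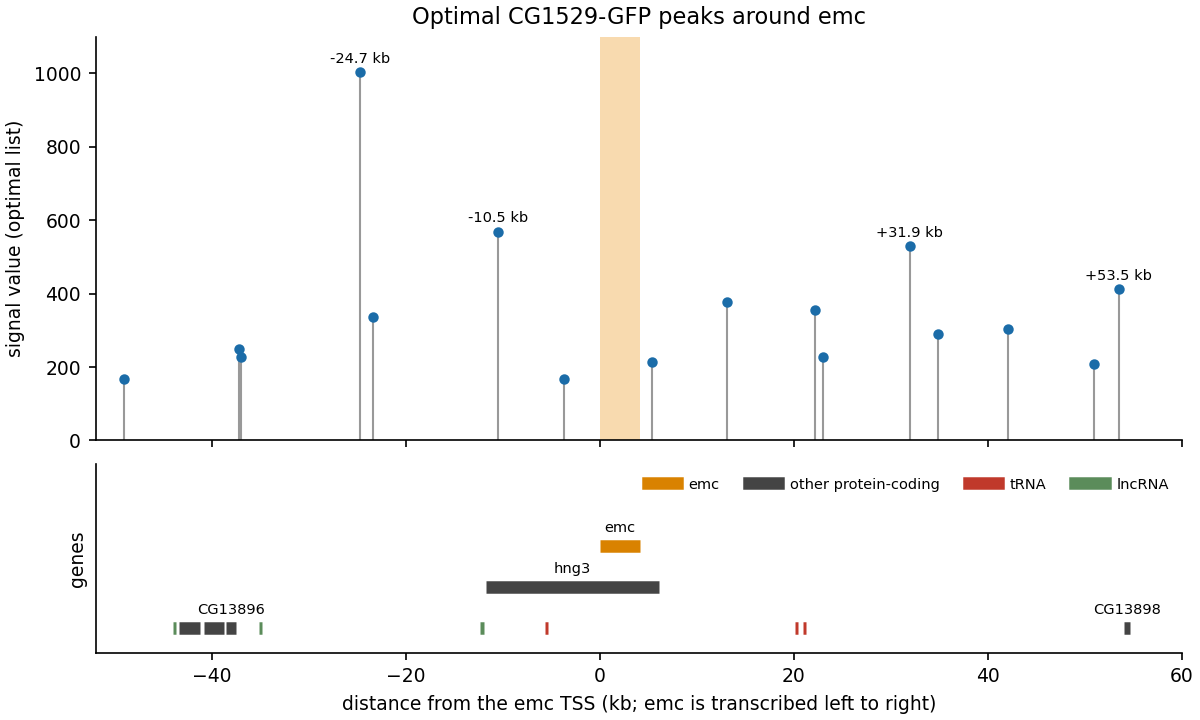
Signal value of each optimal peak (points, vertical axis from 0) against its distance from the emc TSS in kb, with the annotated genes of the window below, emc shaded. The 16 peaks lie on both sides of emc and none lies in it, and the highest, 1004, is 24.7 kb upstream in a stretch without genes.

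The emc gene itself carried little. In the optimal list 0 summits lay between its start and end, and in the libraries 0 of the 3921 strongest rows did so in any of the 3. The 3921 strongest rows were taken because that is the number of rows in the optimal list. Each library's full list of 30000 rows includes background, and there the best row in the emc body ranked 20423 in replicate 1, 7050 in replicate 2 and 13697 in replicate 3. Those rows had −log10 q-values of 0.18, 2.14 and 0.77. Their summits were 2812, 2486 and 1705 bp after the TSS. The best row of the pooled list in the emc body, in the emc intron 2537 bp after the TSS (signal 74.22, rank 11394), touched rows of rank 20423, 7050 and 14986 in replicates 1, 2 and 3. All of these ranks were below the strongest 3921. Of the 61 genes with at least as many summits in the window, emc included, 33 had 0 in the body, and 38 of the 61 were shorter than 5 kb. These genes fall into 19 stretches of overlapping windows, so many share peaks. The share over all genes was not counted, so an empty body is not read as a trait of emc or of these genes.

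The emc promoter was likewise outside the optimal list, as is usual: 11.4% of all 18164 genes, noncoding ones included, had an optimal summit within 500 bp of a TSS. Within 500 bp of the TSS, replicate 1 listed 0 rows, replicate 2 listed 3 and replicate 3 listed 2. The best of them ranked 7746 in replicate 2, 39 bp after the TSS, and 9465 in replicate 3, 316 bp before it. In the list called on the pooled libraries the best promoter row had a signal of 78.31 and rank 10481, while the weakest optimal peak of all had a signal of 157.0.

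**Figure D2:**
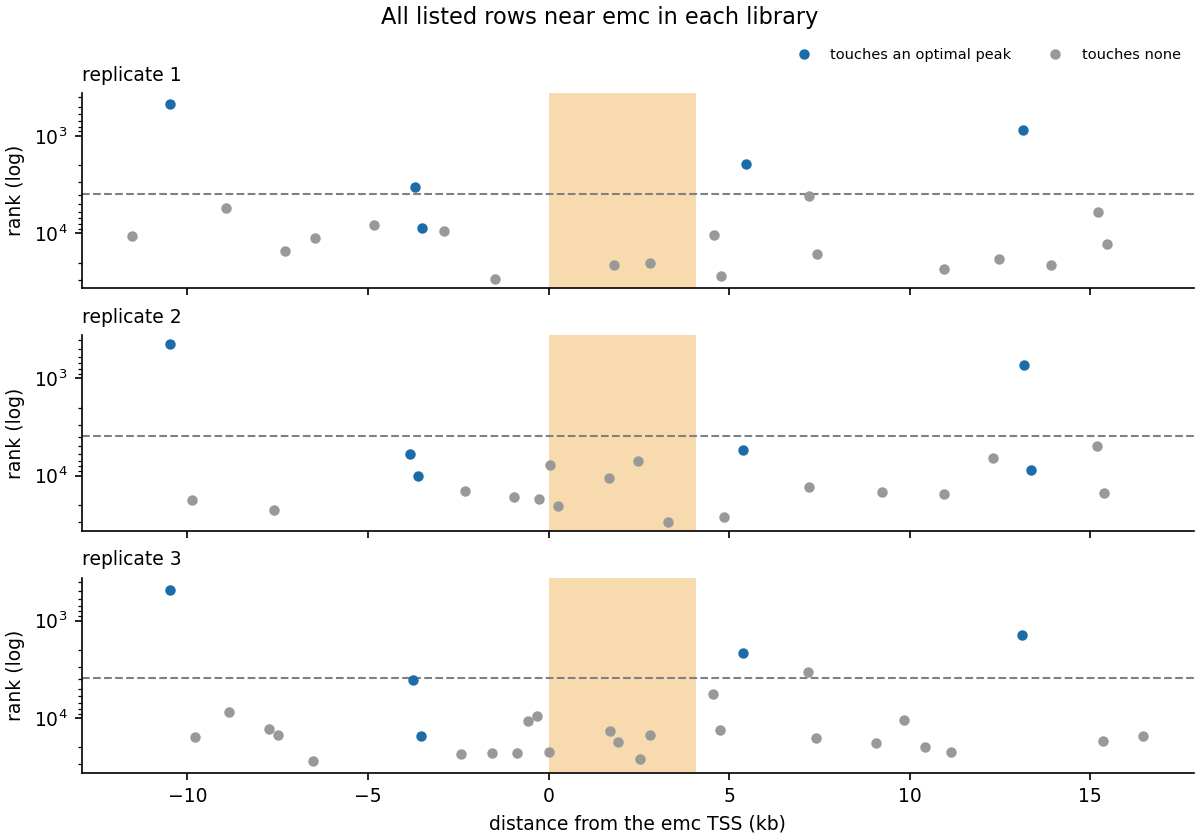
Rank by signal (log axis, rank 3921 dashed, stronger rows higher) of every listed row near emc in each library, against distance from the emc TSS, with the emc gene shaded. Rows that touch an optimal peak stand on both sides of the shaded gene, and every row inside it is weaker than rank 3921 in all 3 libraries.

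The optimal summits closest to emc both lay in the intron of hng3 that contains it, 9109 bp apart. The upstream one (3L:745452-745887, signal 168.6, rank 3507 of 3905) was 3.7 kb before the emc TSS and 1876 bp from the start of tRNA:iMet-CAT-1-3, an initiator methionine tRNA gene. It ranked 3342, 6042 and 4060 in replicates 1, 2 and 3, inside the strongest 3921 in replicate 1 only. It is the single member for which emc had the nearest TSS when protein-coding genes alone were counted. The downstream one (3L:754561-754996, signal 214.2, rank 2519) was 5.4 kb after the emc TSS, past the end of emc, and 710 bp inside hng3 from the TSS of its long transcript. It ranked 1931, 5412 and 2155, so replicate 2 again placed it lower than the other two.

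The third hng3 peak was the second strongest of the window and the most even across libraries. It lay at 3L:738810-739034 (signal 569.0, rank 475), with its summit in the 255 bp intron of the short hng3 transcript, 424 bp inside the gene from that transcript's TSS and 10.5 kb upstream of emc. It ranked 467, 448 and 485 in replicates 1, 2 and 3. The 3 library summits lay within 18 bp of the optimal summit. With these 3 peaks, hng3 was the only gene whose body held optimal summits in this window.

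The remaining 13 peaks were intergenic. The strongest of all, at 3L:724424-724947 (signal 1004, rank 133), had no gene nearby: the closest TSS was that of the noncoding gene lncRNA:CR45411, 10131 bp away, and the closest protein-coding one that of CG13896 at 12811 bp. It ranked 188, 116 and 106 in replicates 1, 2 and 3, the highest rank of any member in each of them. The authors' signal for it in those lists was 320.4, 261.9 and 419.8. A second peak stood 1337 bp from it, 23.4 kb upstream of emc (3L:725917-726109, signal 335.1), with ranks 1415, 1266 and 1305.

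Downstream of emc, 7 peaks stood between the end of hng3 and 3L:800566, in a stretch whose annotated genes were a pair of isoleucine tRNA genes. The strongest was 31.9 kb downstream (3L:781207-781490, signal 530.3, rank 528), 10984 bp from tRNA:Ile-TAT-1-2, and it ranked 510, 951 and 398 in replicates 1, 2 and 3. The peak 13.1 kb downstream (3L:762420-762614, signal 377.8) ranked 870, 723 and 1407. Replicate 2 placed the stronger of these 2 lowest, and replicate 3 the weaker. The library that gave the lowest placing also varied among the other peaks of the stretch.

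No optimal summit lay within 1000 bp of the start of a tRNA gene in the window. The nearest summit to tRNA:Ile-TAT-1-2 was 1207 bp after its start (3L:771461-771647, signal 355.9), with ranks 1016, 897 and 1534. A neighbour 845 bp further on (3L:772197-772632, signal 227.5) ranked 2194, 2637 and 3550. At 34.9 kb downstream a narrow peak of 156 bp (3L:784240-784395, signal 291.1) ranked 1287, 2535 and 1818. At 42.1 kb downstream another (3L:791269-791704, signal 304.9) was 12564 bp from any TSS and ranked 1862, 1237 and 1203. These 4 peaks were within the strongest 3921 rows of every library.

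The remaining peaks, towards the ends of the window, were 361 to 3702 bp from the nearest TSS, that of CG13896, CG13894 or CG13898. Upstream, a pair of overlapping peaks lay before the CG13896 TSS. One summit was at 361 bp (3L:711993-712428, signal 250.3) and the other at 565 bp (3L:712197-712632, signal 227.5). The highest-ranked row that touched them was the same for both in each library, at ranks 1425, 1810 and 2494, so they may be counted as 1 region. The peak 49.1 kb upstream (3L:700066-700501, signal 166.5, the weakest member) was 1140 bp from the CG13894 TSS and ranked 3559, 4975 and 3907. Downstream, the peak 53.5 kb away (3L:802804-803020, signal 412.8) was 1156 bp downstream of the CG13898 TSS, past the end of that gene, and ranked 613, 944 and 1021. The peak 50.9 kb away (3L:800131-800566, signal 208.5) was 3702 bp from the same TSS and ranked 2287, 4364 and 2956.

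The window ends where it does by rule, and peaks went on beyond it. The outermost members were 884 bp and 597 bp inside its ends, and the next optimal summits were 2435 bp and 2369 bp outside them, with signals 751.0 and 256.1. On the signal scale, the weakest member had 166.5, and the strongest row of the pooled list in the window that was not in the optimal list had 148.7, 29.8 kb downstream of the emc TSS.

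Few of these summits were at promoters. Within 500 bp of a TSS there were 2 of 16 (12.5%), the CG13896 and hng3 peaks, where 41.7% of all optimal summits were. Beyond 5000 bp of any TSS there were 6 of 16 (37.5%), where 17.4% of all optimal summits were. The median distance to a TSS was 1964 bp in the window and 855 bp over all optimal peaks. For 8 of the 16 the nearest TSS belonged to a tRNA or long noncoding RNA gene, of which 6 were tRNA genes. Both kinds were among the 11 genes with a TSS in the window. The share of such summits over all optimal peaks was not counted, nor was that of intergenic ones, so neither is read as a trait of the window. The promoter share was alike when the strongest rows of each library in the window were used in place of the optimal list, 15.1% ± 0.231 (SD, n = 3). These were 3 of 20, 2 of 13 and 3 of 20 summits in replicates 1, 2 and 3. With so few summits, the small SD does not measure how precise the share is. The rule looked for a gene with many peaks and did not use distance to a TSS, but peaks of 1 locus are not independent, so no test was made.

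The 3 libraries placed the members in much the same order. A row touched each of the 16 in the full list of every library, and 12 (75%) touched a row among the strongest 3921 of all 3, where 64.4% of all optimal peaks did. Of the others, 3 did so in 2 libraries and 1 in 1 library. With the stricter rule that at least 50% of each peak must overlap, 6 (37.5%) were shared by all 3, where 45.5% of all optimal peaks were. A narrow peak can miss that rule, and the members at 22.2 and 34.9 kb downstream, 187 and 156 bp wide, met it in no library. The optimal list was made from these libraries, so this support is built in and is no separate evidence.

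Replicate 2 gave the fewest strong rows here. The strongest 3921 rows of replicates 1, 2 and 3 had 20, 13 and 20 summits in the window, a mean of 17.7 ± 4.04 (SD, n = 3). They touched 16, 12 and 15 of the members. The 4 members that replicate 2 placed below rank 3921 were those 49.1 and 3.7 kb upstream and 5.4 and 50.9 kb downstream, which are also the 4 weakest by optimal signal. Across the 16 members, Spearman's rho between the ranks in replicates was 0.90 for 1 and 2, 0.90 for 1 and 3 and 0.85 for 2 and 3, given as a description since neighbouring members can share a row. Library summits lay a median of 16 bp from the optimal summit.

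**Figure D3:**
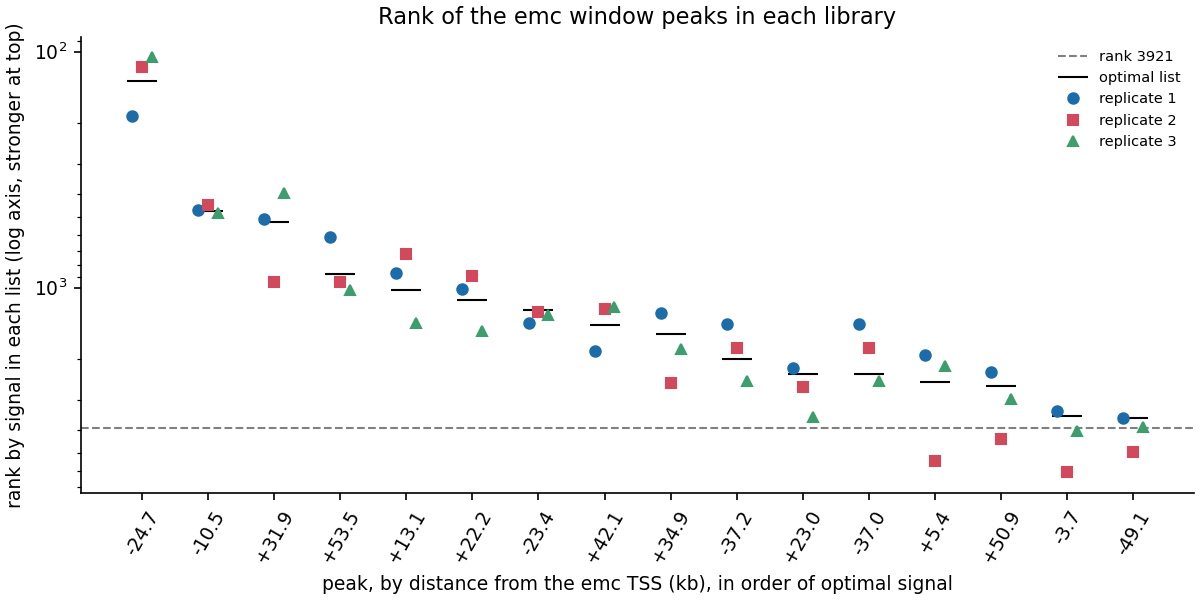
Rank by signal (log axis, stronger at the top) of each member in the optimal list (black dashes) and in the 3 libraries (coloured points), with members in order of optimal signal and named by distance from the emc TSS in kb. The peak 24.7 kb upstream is highest in all lists, and the points below the dashed line at rank 3921 are 4 of replicate 2 and 1 of replicate 3.

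The summits were spaced a median of 7765 bp apart, from 204 to 12927 bp over 15 gaps, and the median over all 3899 gaps of the optimal list was 11201 bp. The gap that spans emc, 9109 bp, was within this range and shorter than the largest one, which lies between the peaks 23.4 and 10.5 kb upstream. Most gaps, 10 of 15, were over 5000 bp. Only the pair before CG13896 overlapped, and the other members were separate intervals.

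Summits in the window were poor in G and C, a feature that the rule did not use. Mean G+C within 50 bp of the summit was 32.6% ± 6.51 (SD over 16 peaks), and 47.5% ± 7.23 in the windows 300 bp to either side. It was lower than in the flanks at 15 of 16 summits, where 78.5% of all optimal summits were. The exception was the summit 37.2 kb upstream, at 45.5% and 35.1% in its flanks. Over all optimal peaks the means were 33.8% at summits and 44.0% in flanks. The libraries' own strongest summits in the window gave 34.7% ± 0.573 and 48.8% ± 0.327 in the flanks (SD, n = 3). The whole window had 43.5% G+C and arm 3L 41.6%, both above the mean at the summits.

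**Figure D4:**
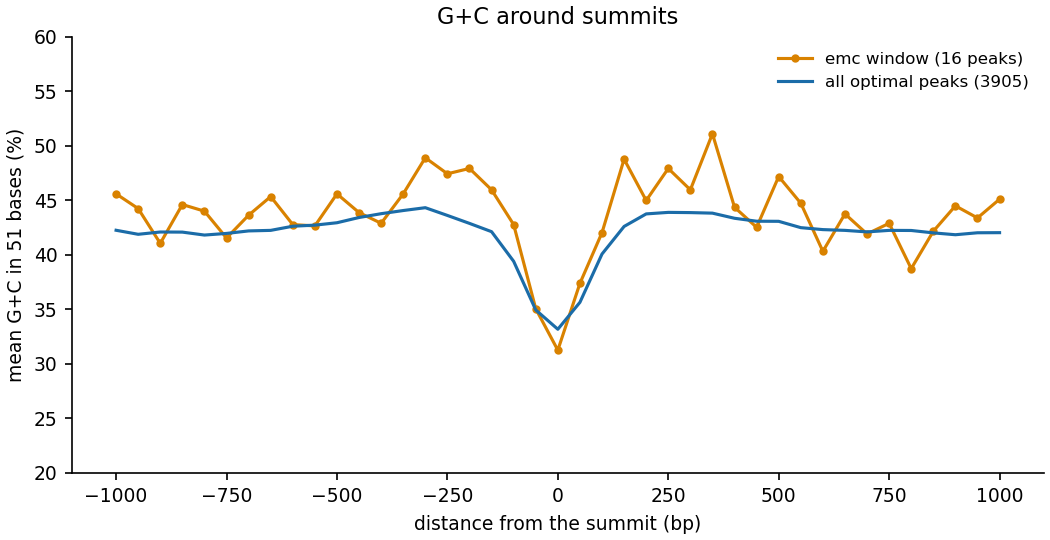
Mean G+C in 51 bases (vertical axis, %) against distance from the summit in bp, for the 16 peaks of the emc window and for all 3905 optimal peaks. Both lines dip at the summit, to 31.3% in the window and 33.2% over all optimal peaks, and the window line is the noisier since it averages 16 peaks.

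In the sequences shown above, the longest unbroken run of A and T was 21 bases in the peak 24.7 kb upstream, 13 in the peaks 10.5 and 3.7 kb upstream, and 20 in the peaks 5.4 and 31.9 kb downstream. Of 9 short motifs searched on both strands within 50 bp of the summit, 4 of the 16 members had any, where 36.8% of all optimal peaks did. The homeodomain core TAATTA was in 1 member, the peak 10.5 kb upstream, where it is in capitals at both places, and in 9.94% of optimal summit windows. The word ATTTAAAA was in the peak 24.7 kb upstream, where its reverse complement is in capitals, and in 6.33% of optimal windows. GAGAG was in 1 member (10.1% of optimal windows) and the E-box CACGTG in 1 (0.512%). The E-boxes CAGCTG (3.64% of optimal windows) and CAGGTG (2.41%), the Zelda core CAGGTA (1.84%), the GATA word AGATAA (8.14%) and the DRE word TATCGATA (0.768%) were in 0 members. CAGCTG and CAGGTG are E-boxes of the kind bound by Daughterless with proneural proteins, and CACGTG is the kind bound by Myc and Max.

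The strongest member also held the words CACAGTGG and CACTGTGC, which share the letters CACAGTG in the first capitals of its sequence, CACTGTGC being read on the minus strand. These words, with CACTGAGA, were taken from earlier results on these same peaks, after the data were seen. CACAGTGG was in 1.15% of optimal windows and 0.794% of flanking windows, and CACTGTGC in 1.02% and 0.691%. CACTGAGA was in 49 of 3905 optimal windows, 0.282% of flanking windows and 0 members. A match is a description of the letters and does not show what bound there.

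Set beside all genes, the emc window was among those with the most summits, as its choice implies. A window of the same kind, gene body and 50 kb to each side, was counted for each of 18164 genes. The emc window had 16 summits and the median gene 3, and 0.336% of genes, 61 of them, had at least 16. These 61 genes fall into 19 stretches of overlapping windows, and emc shares its stretch with hng3, whose longer window held 17. With 50 kb to each side of the TSS, which leaves gene length out, emc had 14, and 0.776% of genes had at least as many. The highest count was 20.

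**Figure D5:**
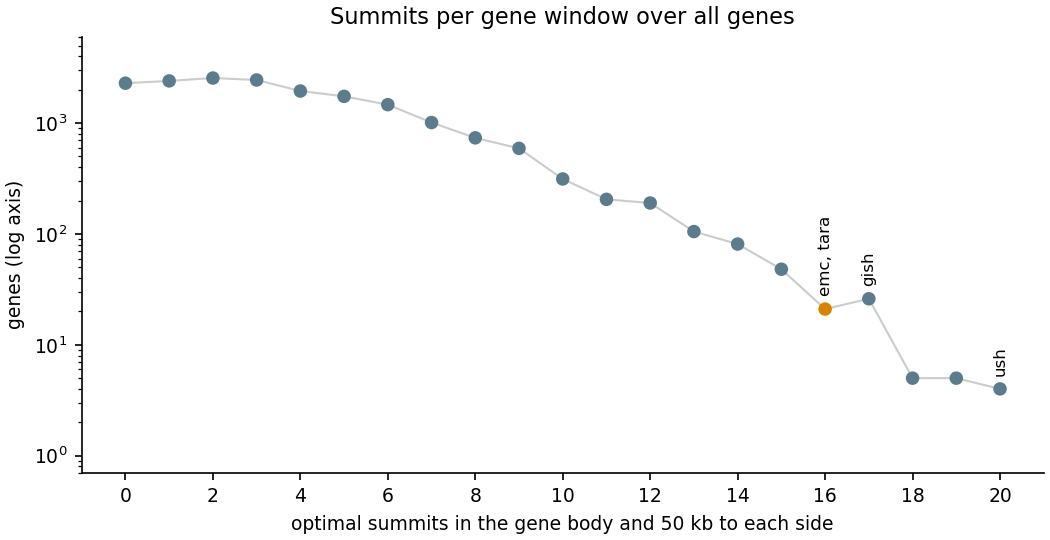
Number of genes (log axis) by the count of optimal summits in the gene body and 50 kb to each side, over 18164 genes, with the value of the emc window in orange. emc and tara have 16, gish 17 and ush 20, and the median gene has 3.

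The window was poor in genes for its number of peaks. It held the TSSs of 11 genes, where the median over all gene windows was 21, and 14.4% of genes had 11 or fewer. Among the 61 genes with at least as many summits, 5 had so few, emc included. The windows of tara, a SERTA-domain chromatin regulator gene, and gish, a casein kinase gene, which overlap each other on 3R, held 16 and 17 summits beside 20 and 19 genes with a TSS. The window of ush, a GATA cofactor gene, held 20 summits beside 28 genes. The tara, gish and ush windows were longer, 134.7, 132.3 and 164.3 kb against 104.1 kb at emc, so these counts are not like for like. Shorter genes in the same stretch as ush also had windows with few genes. The cbt window held 19 summits beside 12 genes, and that of lncRNA:CR46258 held 17 beside 11. Within 500 bp of a TSS were 2 of 16 summits in the emc window, 2 of 16 at tara, 2 of 17 at gish and 6 of 20 at ush. In the gene body itself were 0 summits at emc (4.1 kb long), 6 at tara (34.7 kb), 3 at gish (32.3 kb) and 11 at ush (64.3 kb). Taking 1 gene for each group of overlapping windows, and the first by name among equals, the 5 windows with the most summits were those of CG4297 with 20, lncRNA:CR42755 with 20, lncRNA:CR44357 with 20, kirre with 19 and mtgo with 19. Of these 5, the lncRNA:CR42755 window also held few genes with a TSS, 9, and had 2 of its 20 summits within 500 bp of one and 10 beyond 5000 bp. The window of ome, with 19, tied with those of kirre and mtgo. The CG4297 and ush windows overlap and share peaks. None of these differences was tested.

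Helix-loop-helix and Notch pathway genes were counted from a list of 67, of which 62 were matched by the listed symbol and 5 by the annotation's current symbol (Delta, dysf, hry, Nct and aph-1). Of the 67, 16 (23.9%) had an optimal summit no more than 500 bp from a TSS, where 11.4% of all 18164 genes did. Those 18164 include tRNA and other noncoding genes and the list does not, so the shares are over unlike sets. No test was made on this list, which was chosen with earlier results of these data known. The E protein da and the proneural genes ac, sc, l(1)sc, ase, ato, amos, cato and tap, whose products pair with each other or with Emc, had one at 0 of 9. The Hairy and E(spl) repressors had one at 3 of 11 (27.3%), all in the E(spl) complex, whose genes act below Notch. These were E(spl)m7-HLH with signal 908.6, E(spl)m3-HLH with 743.6 and E(spl)mdelta-HLH with 474.4. The last 2 of these peaks stood closer to the TSS of another gene.

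Notch pathway genes had a summit at 5 of 14 (35.7%). They were numb, an inhibitor of Notch, with signal 737.5, aph-1, a gamma-secretase subunit gene, with 434.7 at a peak closer to Snx21, neur, a ubiquitin ligase gene acting on Notch ligands, with 380.3, the receptor gene N with 233.1, and mam, a coactivator gene, with 189.9. Of the mesoderm, gut and other helix-loop-helix genes, 3 of 16 (18.8%) had one: crp with 295.8, Mitf with 234.6 and net with 222.8. The Myc, Max and Mondo group had 3 of 6, Mnt with 280.6, bigmax with 229.0 and Max with 201.1 at a peak closer to CG42374. The bHLH-PAS group had 2 of 11 (18.2%), the tracheal regulator trh with 589.6 and the coactivator tai with 308.4. By summits in the gene window the emc count of 16 was above the median of each group, which ran from 2.0 for the proneural group to 11.0 for the Hairy and E(spl) group, and emc was chosen for that count. Neighbouring genes share windows and peaks, so these medians do not rest on separate loci. The E(spl) genes of 1 complex had 11 to 14 each, while hry, dpn, Hey and cwo had 7, 3, 4 and 7. The neighbours ac, sc, l(1)sc and ase on X had 1, 1, 1 and 2.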

How the data were processed

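Peak lists on the dm6 build were deposited by the authors, 1 for each of 3 libraries, 1 for the pooled libraries, each with 30000 rows that include background, and 1 optimal list of 3921 rows kept by the irreproducible discovery rate. The signal value and the −log10 q-value of each peak are as deposited. Aligner, peak caller, scaling and threshold were not given in the sources used here. Values were therefore compared within 1 list, except where the signal of a pooled row was set beside that of an optimal peak. A common signal scale is assumed for the pooled and optimal lists there. Read depth is unknown. DNA was sheared to 200 to 800 bp, per the labels.

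Rows with the same interval were counted once, leaving 3905. The summit is the peak start plus the offset in the list. Genes and 23581 TSS positions came from Ensembl release 115 (BDGP6.54), and sequence from the RefSeq copy of the same assembly, whose arms are long enough for every peak. A peak's rank in a library is that of the strongest row touching it. Python 3.11.15, pandas 2.3.3 and numpy 2.4.6 were used, and overlap, TSS and summit functions were tested on simulated data. Full values are given for summits within 10 kb of emc and the 10 of highest signal, and gene names follow the nearest TSS. The members, lists and motifs were chosen with earlier results of these data known. Alternatives were other windows, overlap rules, list lengths and TSS distances, merged regions, the stronger peaks, other base windows, and leaving out each replicate. No test was made, since the rule used these peaks and peaks of 1 locus are not replicates.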

Additional observations from a re-analysis of the deposited data

How the results depend on the processing

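The 16 peaks of the emc window became 3 with 10 kb to each side, 8 with 25 kb and 26 with 100 kb, and 9 in the stronger 1952 optimal peaks. Peaks found in both other libraries when 1 replicate was left out numbered 12 to 15. The 6 peaks shared by all 3 libraries became 12 by any overlap of 1 bp, 10 with 7842 rows per library and 10 with all rows, and leaving out 1 replicate gave 6 to 10, the highest without replicate 2. The 2 peaks within 500 bp of a TSS became 0 within 250 bp and 4 within 1000 bp. Mean G+C at the summits, 32.6%, was 31.3% within 25 bp and 36.2% within 100 bp. The 16 genes of the helix-loop-helix network became 8 within 250 bp (11.9%, against 8.30% of all genes) and 10 with the stronger peaks (14.9%, against 6.55% of all genes). All genes here again include noncoding ones. The cause of these changes was not tested beyond what each setting leaves out. The median spacing stayed within 1.5 times of its value under the 4 settings tried. Peak lists give no read depth, so precision in reads is unknown, and a weak or absent row does not show that the protein was absent.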

Other observations

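Below the optimal list the pooled list had 75 further rows with summits in the emc window, of which 72 touched no optimal peak and 41 of those touched a row in all 3 libraries. The strongest was 29.8 kb downstream of the emc TSS (signal 148.7, pooled rank 4223), with ranks of 10236, 3074 and 3553 in replicates 1, 2 and 3. The next was 28.1 kb upstream (signal 146.5), with ranks of 5580, 9357 and 2741. A row 7.2 kb downstream, 1097 bp before the long-transcript TSS of hng3 (signal 142.2), had ranks of 4174, 13098 and 3400. Of the 72, 0 were among the strongest 3921 rows of all 3 libraries.

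Some strong rows of single libraries in the window were in no optimal peak, 3 in replicate 1, 2 in replicate 2 and 5 in replicate 3. Replicates 1 and 3 had one 405 and 400 bp before the CG13894 TSS, at ranks 2844 and 2892, where replicate 2 listed none touching the pooled row. Replicates 2 and 3 had one 83 and 197 bp after the CG13895 TSS, at ranks 3501 and 3118, where replicate 1 listed none touching the pooled row.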
